A study of Mus musculus with 3 samples.

Results

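The cohesin and Ctcf loop machinery was described here as 10 genes, chosen by name from the 26286 genes of the count table. Earlier results of these data were known when the genes were chosen. They are the ring subunits Smc1a, Smc3 and Rad21, the alternative added subunits Stag1 and Stag2, the boundary protein gene Ctcf, the loader Nipbl, and the regulators Pds5a, Pds5b and Wapl. All 10 were found through their Entrez identifiers. RNA was sequenced from mouse bone marrow pre-B cells, in 3 libraries that form a single group. All libraries came from CAG-rtTA3;TRE-GFP-shLuc.1309 bitransgenic mice given Dox (doxycycline) for 3 days, which switched on a control shRNA together with GFP, and from cells sorted as GFP+B220+IgM–Kit–CD25+. No library without the transgenes or without Dox was analysed here, so neither can be separated from the cells themselves. Replicate 3 was handled with version 1.8.0 of CASAVA, Illumina's software for processing sequencer output, and replicates 1 and 2 with version 1.8.2. The labels do not say whether the libraries came from separate animals. The sex-linked transcripts described below set replicate 1 apart from replicates 2 and 3, so the 3 libraries were not all made from the same RNA. The p-values rest on these 3 libraries alone, and the spread between them may in part be technical.

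Cohesin is a ring of Smc1a, Smc3 and the kleisin Rad21, to which a Stag subunit binds. Nipbl, with its partner Mau2, loads the ring and drives it to extrude DNA into loops. Wapl and the Pds5 proteins release it, and Ctcf bound to DNA in the right orientation halts it. In developing B cells this process brings distant variable segments of the antigen receptor loci close to the recombination centre, and in mouse pro-B cells the factor Pax5 represses Wapl and so lengthens the loops.

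Replicate 3 held 32086649 counts, against 12418054 in replicate 1 and 12021576 in replicate 2, so its values carry the least counting error. Of the 8 B lineage markers, 8 were at or above 10 RPKM in every library (reads per kilobase of gene length, scaled to library size), with a summed level of 4004 RPKM in replicate 3 against 4325 and 4465 RPKM in replicates 1 and 2. Kit, which the sort gated out, was at 0.432 RPKM in replicate 3 against 1.07 and 0.870 RPKM in replicates 1 and 2. The 8 neutrophil markers summed to 2299 RPKM in replicate 3, against 1289 and 1560 RPKM in replicates 1 and 2, and 8 of 8 were at or above 1 RPKM in every library. Of the 6 T and NK cell markers only Lck was above 1 RPKM in every library. Monocyte markers summed to 24.0 RPKM in replicate 3, against 15.8 and 19.3 RPKM in replicates 1 and 2, and erythroid markers to 7.23 RPKM in replicate 3, against 8.38 and 7.69 RPKM in replicates 1 and 2. Fewer cells of a type and less RNA per cell cannot be told apart in such bulk libraries.

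All 10 genes of the machinery were expressed at or above 1 RPKM in every library, where 42.4% of all genes in the table were. At or above 10 RPKM were 9 of the 10, Wapl being the exception, against 25.3% of all genes. Their median level was 6.33 ± 0.08 on the log2(RPKM + 0.5) scale (SD, n = 3), and that of the 17423 genes with a count was 2.57 ± 0.02. The counts behind these values ran from 425, for Wapl in replicate 2, to 25392, for Nipbl in replicate 3. By level per length the order was Rad21, Ctcf, Smc1a, Nipbl, Stag2, Pds5a, Smc3, Pds5b, Stag1 and Wapl. Of the 9 pairs of neighbours in that order, the ranges over the libraries overlapped in 2, Smc1a with Nipbl and Stag2 with Pds5a. Each of those pairs kept its order in 2 of 3 libraries.

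**Figure D1:**
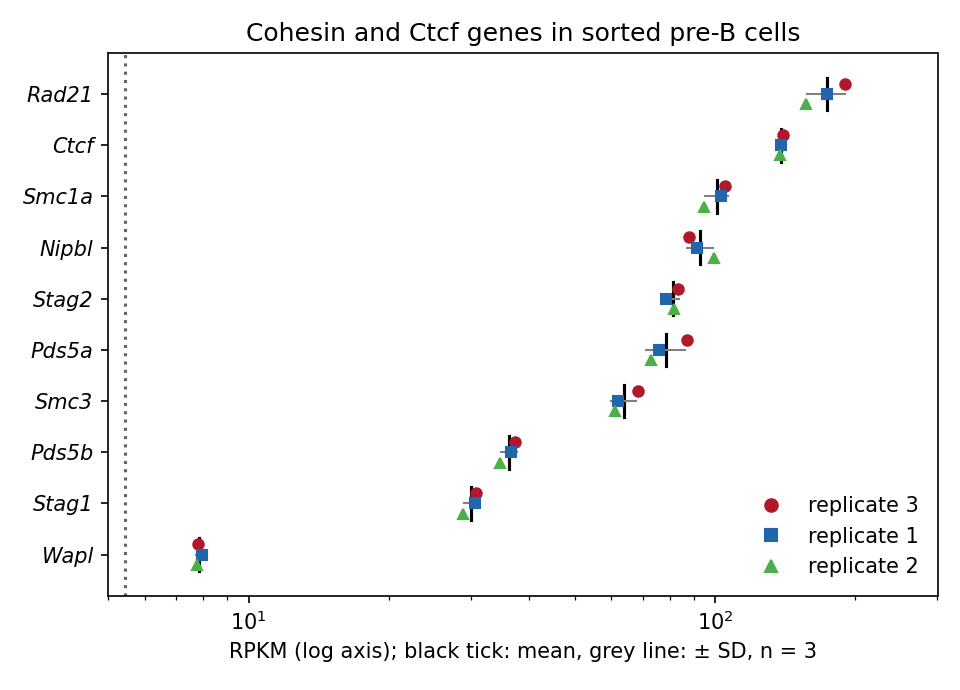
RPKM (log axis) of each of the 10 genes in each of the 3 libraries, with genes in order of their mean level (black tick; the grey line is ± SD, n = 3); the dotted line marks the median of all genes with a count, 2.57 as log2(RPKM + 0.5). Wapl, at 7.73 to 7.96 RPKM, sits apart from the other 9 genes, which run from 28.8 RPKM (Stag1) to 189.6 RPKM (Rad21).

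Among the ring subunits, Rad21, the kleisin that closes the ring and is cut by separase, had the highest level. It was at 189.6 RPKM in replicate 3, against 174 and 157 RPKM in replicates 1 and 2. Smc1a, an ATPase arm of the ring encoded on the X chromosome, was at 105 RPKM in replicate 3, against 103 and 94.6 RPKM in replicates 1 and 2. Replicate 2 was the lowest for both genes. Smc3, the other ATPase arm, was at 68.5 RPKM in replicate 3, against 62.0 and 61.0 RPKM in replicates 1 and 2. The transcripts of the ring's subunits therefore did not stand at equal levels per length. Rad21 exceeded Smc3 by 1.43 ± 0.07 on the log2(RPKM + 0.5) scale, or 2.70-fold, and Smc3 was below Smc1a by a log2 difference of -0.66 ± 0.06 (SD, n = 3 each). Both differences had the same sign in all 3 libraries. Without correction for length they kept their direction but were smaller, at 2.02-fold for Rad21 over Smc3 and 0.773-fold for Smc3 over Smc1a. The exact two-sided sign-flip permutation test gave p = 0.25 for each difference, which is the smallest value that 3 libraries allow. That value holds for all 12 differences between genes tested here.

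The Stag subunits decide which form of the ring is made, and in human cells STAG2 cohesin is tied more to short-range contacts and STAG1 cohesin to CTCF boundaries. Stag2, also X-linked, was at 83.5 RPKM in replicate 3, against 78.6 and 81.8 RPKM in replicates 1 and 2. Stag1 was at 30.7 RPKM in replicate 3, against 30.5 and 28.8 RPKM in replicates 1 and 2. The levels of the paralogs did not overlap. Stag2 made up 73.1% of the summed Stag RPKM in replicate 3, against 72.0% and 73.9% in replicates 1 and 2. The difference of Stag2 minus Stag1 was 1.42 ± 0.07 on the log2(RPKM + 0.5) scale (SD, n = 3; exact sign-flip p = 0.25), or 2.68-fold. No word of 31 bases is shared between transcripts of the paralogs in GENCODE M21, so reads of that length or longer that match perfectly belong to only 1 of them. Stag1 and Stag2 together reached 114 RPKM in replicate 3, against 109 and 111 RPKM in replicates 1 and 2. That sum was below Rad21 by a log2 difference of -0.63 ± 0.12 (SD, n = 3; exact sign-flip p = 0.25), or 0.644-fold. Without correction for length the direction turned, the sum being 1.08-fold of Rad21 in CPM (counts scaled to library size alone), because the Stag genes are listed at 6089 and 6010 bases and Rad21 at 3605.

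Ctcf, the zinc finger protein that binds boundaries and halts extruding cohesin, was second in the order. It was at 140.3 RPKM in replicate 3, against 138 and 138 RPKM in replicates 1 and 2. The libraries were almost level, with a coefficient of variation (SD over mean) of 0.994% where counting error alone gave 1.10%. Ctcf was below Rad21 by a log2 difference of -0.32 ± 0.12 (SD, n = 3; exact sign-flip p = 0.25), and below it in every library. Of Ctcf's exon bases, 7.61% are overlapped by genes on the opposite strand (Gm5914 and Agrp) in GENCODE M21. No source used here gives the strand setting of the counting, so that stretch cannot be assigned to Ctcf alone.

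Nipbl, the loader, was the only gene of the 10 with its lowest level in replicate 3. It was at 88.0 RPKM in replicate 3, against 91.5 and 99.6 RPKM in replicates 1 and 2. Mau2, which forms the loader complex with Nipbl, was at 41.9 RPKM in replicate 3, against 40.6 and 41.8 RPKM in replicates 1 and 2. Nipbl thus exceeded its partner by 1.16 ± 0.09 on the log2(RPKM + 0.5) scale (SD, n = 3; exact sign-flip p = 0.25), or 2.23-fold, and 3.74-fold in CPM. Nipbl is the longest of the 10 genes, at 8965 bases, and ranked 1 of the 10 by CPM and 4 per length.

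Pds5a and Pds5b encode the paired scaffold proteins that bind the ring and take part both in its release by Wapl and in its protection. Pds5a was at 87.1 RPKM in replicate 3, against 75.9 and 73.0 RPKM in replicates 1 and 2. Pds5b was at 37.4 RPKM in replicate 3, against 36.6 and 34.6 RPKM in replicates 1 and 2. Pds5a exceeded Pds5b in every library, by 1.11 ± 0.09 on the log2(RPKM + 0.5) scale (SD, n = 3; exact sign-flip p = 0.25), or 2.15-fold. In CPM, without length, the excess was 1.23-fold. The size therefore rests on the deposited gene lengths, 4146 bases for Pds5a and 7308 for Pds5b, while the GENCODE M21 transcripts hold 8929 different words of 31 bases for Pds5a and 8281 for Pds5b. How the reads lie along either gene was not analysed here. The paralogs share no word of 31 bases.

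Wapl, which opens the ring and takes cohesin off chromatin, stood apart at the bottom. It was at 7.79 RPKM in replicate 3, against 7.96 and 7.73 RPKM in replicates 1 and 2, from 1149 counts in replicate 3 and 453 and 425 counts in replicates 1 and 2. The 95% exact Poisson intervals, which cover counting error only, were 7.34 to 8.25 RPKM in replicate 3, 7.24 to 8.72 RPKM in replicate 1 and 7.02 to 8.51 RPKM in replicate 2, so all 3 overlap. Its coefficient of variation was 1.48%, below the 4.26% that counting error alone gave. Wapl was below Nipbl by a log2 difference of -3.49 ± 0.10 (SD, n = 3; exact sign-flip p = 0.25), or 0.0891-fold, and 0.0437-fold in CPM. Stag1, the next gene above it, was 3.84-fold higher in mean level, and the other 9 genes spanned 5.78-fold among themselves. Its level was still at percentile 55.2 of all genes with a count, while the other 9 were at percentile 81.8 (Stag1) or above, up to 98.0 (Rad21). No word of 31 bases of its transcripts is shared with another gene, and no gene overlaps its exons in GENCODE M21.

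Of the 14514 protein-coding genes compared, those nearest in level over the 3 libraries were Jpt1 and Clta to Rad21, Pim1 and Arpc1b to Ctcf, and Mars2 and Dhcr7 to Wapl. The largest difference in any library on the log2(RPKM + 0.5) scale was 0.039 for Jpt1 and 0.098 for Clta. It was 0.030 for Pim1 and 0.031 for Arpc1b, and 0.026 for Mars2 and 0.041 for Dhcr7. Jpt1 was at 193 RPKM in replicate 3 against 175 and 153 RPKM in replicates 1 and 2. It was picked for its closeness to Rad21 in each library, which fixes the shared order of libraries.

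Promoter sequence from RefSeq on GRCm38.p6, covering 250 bases before to 50 after the annotated start, was available for 7 of the 10 genes: Smc1a, Smc3, Stag1, Ctcf, Wapl, Pds5a and Pds5b. Windows of 30 bases are shown for words that recur among these genes, with the word in capitals, to let the reader compare promoters of ring, boundary and release genes. The words were chosen after the promoters had been read, so their counts are a description only. TTGGCGC, a core of E2F-type sites, which are typical of genes active around DNA replication, lay in 3 of the 7 promoters on either strand, and in 2.45% of 32851 promoters of the same length.
Pds5a (chr5:65698328-65698357, minus strand): cgcgggcaggtcTTGGCGCcaaacgggtgg
Pds5b (chr5:150673773-150673802, plus strand): gcggagctgctcTTGGCGCcattttgaagc
Ctcf (chr8:105636373-105636402, plus strand): ggcttttgaaagTTGGCGCccggggccgcc
In Pds5a the word and its reverse complement overlap, and in Ctcf a second copy lies downstream on the other strand.

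CCATNTT, a core of YY1-type sites, lay in 4 of the 7 promoters (Smc3, Stag1, Ctcf and Pds5b), against 16.1% of all promoters. In Smc3 and Ctcf it lies just downstream of the start, and in Pds5b it overlaps the E2F-type word shown above.
Smc3 (chr19:53600385-53600414, plus strand): ccgcggccgccgCCATTTTgtttggccaca
Ctcf (chr8:105636537-105636566, plus strand): accgcgccgccgCCATTTTgtgtccgagcc
CCAAT, the box bound by NF-Y, lay in 4 of the 7 (Smc1a, Stag1, Wapl and Pds5b), against 37.4% of all promoters. Wapl and Smc1a, with mean levels of 7.83 and 100.9 RPKM, held neither of the words above. Wapl had the CCAAT box on each strand.
Wapl (chr14:34673784-34673813, plus strand): ccacgcggtccgaCCAATggtggtagccgg
Wapl (chr14:34673851-34673880, plus strand): aagaggccgtacgATTGGctgcggagtcgg
AGGGGGC, a core of Ctcf's own motif, lay in 1 of the 7, Pds5b, against 10.6% of all promoters. A match of letters is not a measured site, and binding was not measured in these data.

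The spread over the libraries was small. The median coefficient of variation of the 10 genes was 4.72%, against 9.77% for the 12147 genes that passed the filter on low counts, which all 10 did. High counts bring small counting error. The median biological coefficient of variation, which edgeR estimates with counting error set aside, was 11.2% for the 10 genes and 11.9% for all. edgeR draws each gene's estimate towards that of other genes, so the closeness of these medians is partly built in. For Ctcf the estimate was 11.1%, where its whole coefficient of variation was 0.994%. The chi-square test against Poisson counting, with Benjamini-Hochberg adjustment over all genes, called 7 of the 10, against 54.5% of all genes. The 3 genes it did not call were Ctcf, Wapl and Stag1. The test picks up smaller spreads where counts are higher, so a gene not called need not be steadier. Stag1 had a coefficient of variation of 3.46%, and Stag2, with more counts, was called at 3.06%. Among the 7 genes called, the widest spreads were those of Pds5a, with a coefficient of variation of 9.51%, and Rad21, with 9.38%. Leaving out replicate 3 left 3 genes called (Smc1a, Rad21 and Nipbl), against 25.7% of all genes tested. Leaving out replicate 2 left 5 (Smc3, Rad21, Stag2, Nipbl and Pds5a), against 32.8%. Leaving out replicate 1 left 7, with Stag1 called and Stag2 not, against 43.3%. With edgeR, in a fit with no group term, the quasi-dispersion was above that of genes of similar level for Rad21 (1.39-fold) and Pds5a (1.36-fold), and the test called 0 of the 10, the lowest p being 0.320 before adjustment and 0.996 after it. That test called 0.0165% of all genes, and 644 of them had an unadjusted p under 0.05.

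**Figure D2:**
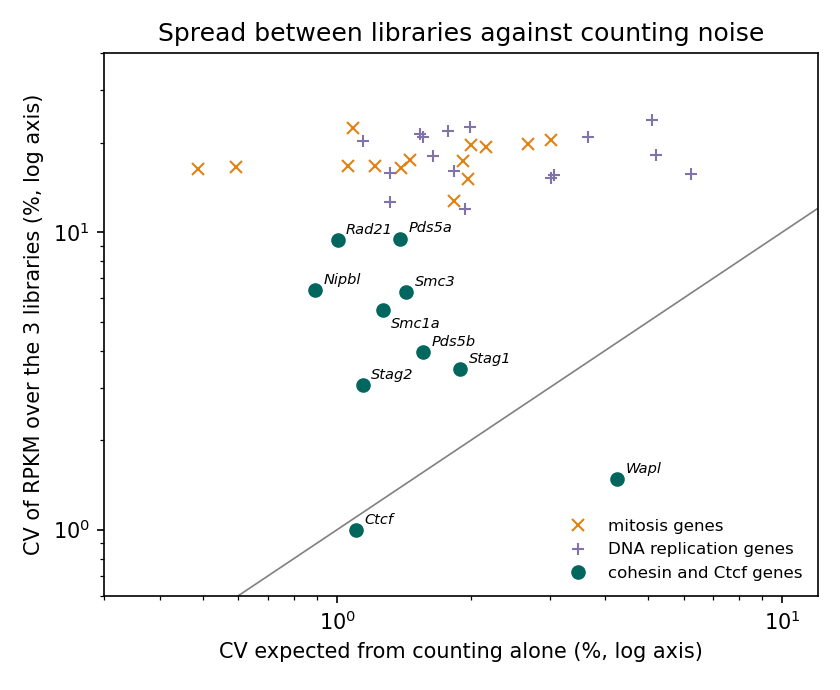
Coefficient of variation over the 3 libraries (percent) against the coefficient of variation that Poisson counting alone gives (percent), both on log axes, for the 10 genes (filled circles, named), the mitosis genes (crosses) and the DNA replication genes (plus signs); the line marks equality. Ctcf and Wapl lie below the line, and Rad21 and Pds5a are the highest of the 10, under all of the mitosis and DNA replication genes (11.99% or above).

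The technical label that differed between libraries, the CASAVA version, set replicate 3 against replicates 1 and 2. Since replicate 3 is also the deepest library, version, depth and sample cannot be told apart. In edgeR's quasi-likelihood test with Benjamini-Hochberg adjustment, 0 of the 10 genes passed 0.05 in either direction, where 0.0576% of all genes were called higher and 0.0165% lower, 0.0741% in all. Of the 10, 0 had an unadjusted p under 0.05 by edgeR, against 1177 of the 12147 genes tested, and DESeq2 called 0 of them, against 36 of all genes. The lowest value was that of Pds5a, with a log2 fold change of 0.23 ± 0.13 (SE) and an adjusted p of 0.617 by edgeR. Rad21 followed with 0.19 ± 0.13 (SE), and Nipbl had the lowest log2 fold change, -0.12 ± 0.13 (SE, adjusted p = 0.808 by edgeR). The median log2 fold change was 0.06 for the 10 genes and -0.01 for all genes. Replicate 3 is a single library, so the spread in this test comes from replicates 1 and 2, pooled over genes by edgeR. Replicate 3 is assumed to vary like them. Replicates 1 and 2 also differed in sex-linked transcripts, with 22609 and 94 counts of Xist.

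Without a test, 8 of the 10 genes had their highest level in replicate 3, as had 35.0% of all genes tested, and 8 had their lowest in replicate 2, as had 36.4%. Of the genes counted here, Ctcf, Stag1 and Wapl did not differ beyond Poisson counting (chi-square adjusted p = 0.437, 0.0702 and 0.921). Their order of libraries may be counting error. Nipbl was lowest in replicate 3, as were 36.1% of all genes, and highest in replicate 2, and Wapl was highest in replicate 1. Stag2 was lowest in replicate 1. Lists of proliferation genes had that order of libraries in nearly all their members, with coefficients of variation of 12.7% to 22.4% for mitosis and 11.99% to 23.7% for DNA replication. The 14 mitosis genes were all highest in replicate 3 and lowest in replicate 2, with a median shift from the mean of the libraries of 0.23 (log2 CPM) in replicate 3, against 0.04 and -0.28 in replicates 1 and 2. The 16 DNA replication genes were all highest in replicate 3, with a median shift of 0.27 in replicate 3, against -0.01 and -0.25 in replicates 1 and 2. For the 10 genes of the machinery the median shift was 0.04 in replicate 3, against 0.00 and -0.06 in replicates 1 and 2. Of the 8 neutrophil markers, 6 were highest in replicate 3 and Elane and Mpo in replicate 1, and 0 passed the edgeR test, where 6 had an unadjusted p under 0.05. Their median shift was 0.40 in replicate 3, against -0.36 and -0.07 in replicates 1 and 2. The part of proliferation or of other cells in the order of the 10 genes was not tested.

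**Figure D3:**
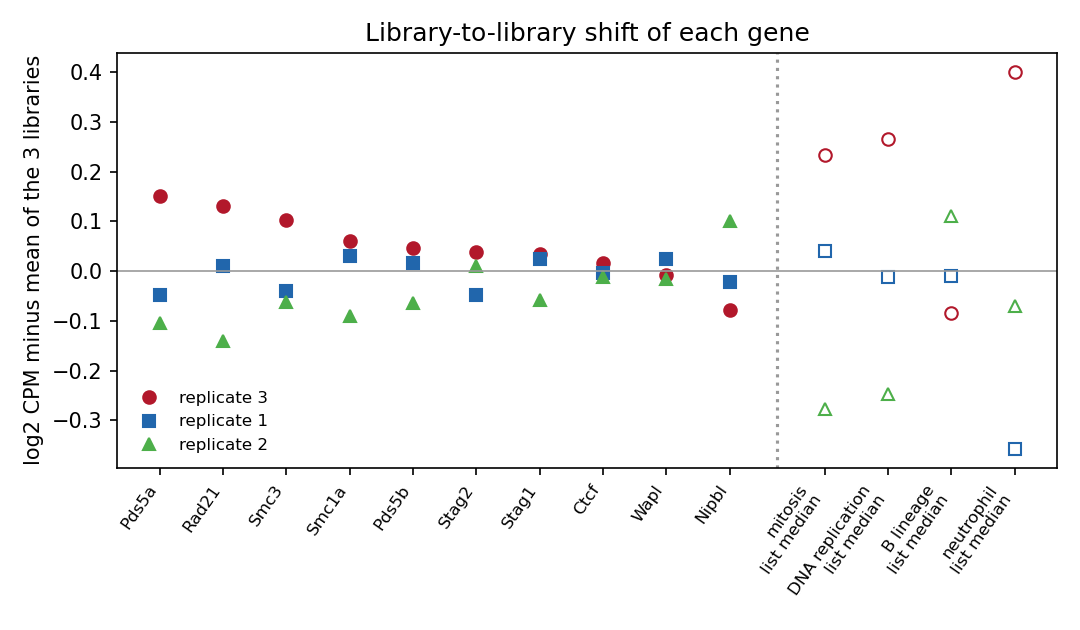
Shift of each of the 10 genes in each library from the mean of the 3 libraries (log2 CPM), as filled symbols, and to the right of the dotted line the median shift of the mitosis, DNA replication, B lineage and neutrophil lists as open symbols. Pds5a at 0.15 and Rad21 at 0.13 are the highest in replicate 3, and Nipbl at -0.08 is the lowest there.

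Smc1a and Stag2 lie on the X chromosome, and the libraries differed in sex-linked transcripts. Xist, the RNA of the inactive X chromosome, had 70 counts in replicate 3, against 22609 and 94 in replicates 1 and 2. Ddx3y, on the Y chromosome, had 4881 counts in replicate 3, against 1 and 1950 in replicates 1 and 2. For the X-linked pair, replicate 1 lay within the range of the others for Smc1a, and for Stag2 it was the lowest, with a shift of -0.05 against 0.04 in replicate 3 and 0.01 in replicate 2 (log2 CPM). Stag2 was also called by the chi-square test (adjusted p = 0.00100). That call was lost without replicate 1 (adjusted p = 0.216) or without replicate 3 (adjusted p = 0.0883), and kept without replicate 2. Smc1a kept its chi-square call without replicate 1 (adjusted p = 3.05e-09) or without replicate 3 (adjusted p = 0.000407), and lost it without replicate 2 (adjusted p = 0.343). Of all genes tested, 54.5% were called with every library, 43.3% without replicate 1, 32.8% without replicate 2 and 25.7% without replicate 3.

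Germline paralogs, which replace somatic subunits during meiosis, were nearly silent apart from Stag3. Over the 3 libraries Smc1b had 5 counts, against 23005 for Smc1a, which per length makes Smc1a 4682-fold higher (95% interval 2006 to 14421, counting error only). Rec8, the meiotic kleisin, had 3 counts, against 36584 for Rad21, a ratio per length of 6921 (2368 to 33562). Rad21l had 0 counts, so that Rad21 was at least 5581-fold higher per length, taking a floor of 3 counts over the group. Ctcfl, the testis paralog of Ctcf, also had 0 counts, and Ctcf was at least 8452-fold higher on the same floor. A count of 0 still allows up to 0.152 RPKM of Rad21l and 0.0778 RPKM of Ctcfl in the shallowest library. Stag3 differed from these, at 3.72 RPKM in replicate 3, against 3.47 and 5.07 RPKM in replicates 1 and 2, from 506 counts in replicate 3 and 182 and 257 in replicates 1 and 2. It was highest in replicate 2, its counts differed beyond Poisson counting (adjusted p = 9.68e-05), and Stag2 exceeded it 20.8-fold (19.5 to 22.2).

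**Figure D4:**
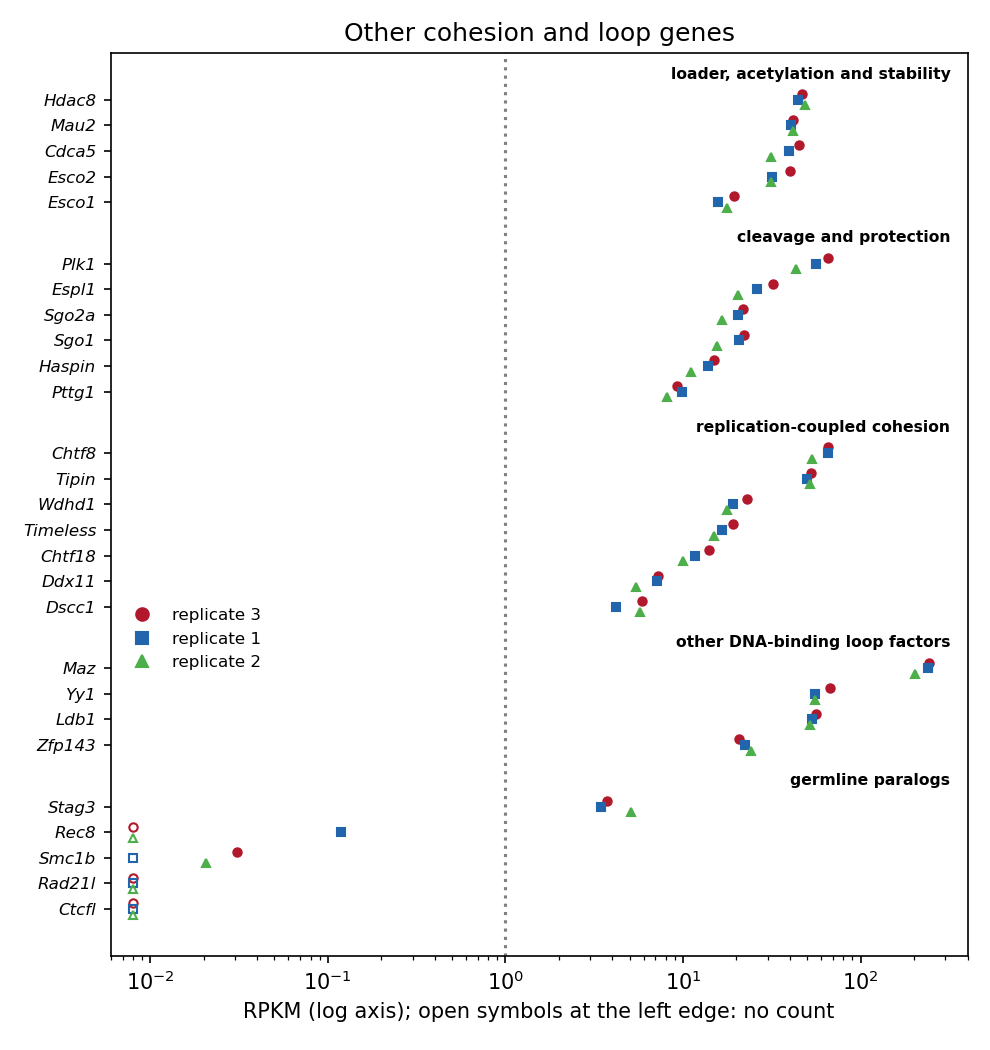
RPKM (log axis) in each of the 3 libraries for the 27 other genes of cohesin regulation and looping, grouped by role; the dotted line marks 1 RPKM and open symbols stand for no count. Of the germline paralogs, Stag3 lies above the line in every library.

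Of the 27 other genes of the pathway, 23 were at or above 1 RPKM in every library, and the exceptions were the germline paralogs Smc1b, Rec8, Rad21l and Ctcfl. Among the genes that acetylate or stabilise the ring, Esco2, which acetylates Smc3 during replication, was at 40.2 RPKM in replicate 3, against 31.6 and 31.2 RPKM in replicates 1 and 2. Esco1, which acetylates Smc3 throughout the cycle, was at 19.3 RPKM in replicate 3, against 15.7 and 17.7 RPKM in replicates 1 and 2. Esco1 shares 12.3% of its words of 31 bases with other genes, so its level is less certain. Esco2 exceeded Esco1 by 0.94 ± 0.13 on the log2(RPKM + 0.5) scale (SD, n = 3; exact sign-flip p = 0.25), or 1.92-fold, and by 1.24-fold in CPM. Cdca5, or sororin, which shields acetylated cohesin from Wapl, averaged 38.5 ± 6.98 RPKM, and Hdac8, the X-linked deacetylase that recycles Smc3, averaged 46.5 ± 2.00 RPKM (SD, n = 3 each). Sororin's coefficient of variation, 18.1%, was larger than that of any of the 10 genes.

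Genes that cut or protect the ring in mitosis were all lowest in replicate 2, as were 36.4% of all genes tested. Of these, Pttg1 did not differ beyond Poisson counting (chi-square adjusted p = 0.252). Espl1, or separase, which cuts Rad21, was at 32.02 RPKM in replicate 3, against 26.1 and 20.5 RPKM in replicates 1 and 2. Plk1, the kinase that helps strip cohesin from chromosome arms, averaged 54.8 ± 11.1 RPKM, and Sgo1, shugoshin, which protects cohesin at centromeres, averaged 19.4 ± 3.42 RPKM. The securin gene Pttg1 averaged 9.09 ± 0.85 RPKM and Haspin 13.3 ± 1.97 RPKM. Plk1 shares 19.0% of its words of 31 bases with other genes, chiefly the pseudogene Plk-ps1, and Sgo2a shares 49.8%, so both levels are uncertain.

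Genes that couple cohesion to the replication fork were all highest in replicate 3, as were 35.0% of all genes tested. Tipin and Dscc1 did not differ beyond Poisson counting (chi-square adjusted p = 0.656 and 0.0654). Chtf8 was at 65.76 RPKM in replicate 3 against 65.72 RPKM in replicate 1. Chtf8 and Dscc1, parts of the clamp loader that aids cohesion, averaged 61.6 ± 7.15 and 5.28 ± 0.95 RPKM, and their partner Chtf18 averaged 11.9 ± 2.04 RPKM. The fork protection pair Tipin and Timeless averaged 51.4 ± 1.17 and 17.0 ± 2.13 RPKM. Wdhd1 averaged 20.0 ± 2.77 RPKM and the helicase gene Ddx11 6.58 ± 1.02 RPKM (SD, n = 3 each). The levels of Chtf8 and Chtf18 are uncertain, since they share 21.2% and 10.5% of their words of 31 bases with other genes.

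Other DNA-binding factors linked to loops were at or above 10 RPKM in every library, 4 of 4. Maz, a zinc finger protein found near Ctcf sites, was at 242 RPKM in replicate 3, against 241 and 203 RPKM in replicates 1 and 2, above Rad21 in each. Yy1 was at 67.1 RPKM in replicate 3, against 55.1 and 55.5 RPKM in replicates 1 and 2. Zfp143 averaged 22.5 ± 1.73 RPKM and Ldb1 54.0 ± 2.20 RPKM (SD, n = 3 each).

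None of the 23 tested genes among these 27 passed the comparison of replicate 3 with replicates 1 and 2, the lowest adjusted p being 0.412 by edgeR, where 0.0741% of all genes were called. Of the 23, 6 had an unadjusted p under 0.05, against 1177 of all 12147. Esco2 had a log2 fold change of 0.35 ± 0.11 (SE, unadjusted p = 0.0143 by edgeR). The chi-square test against Poisson counting called 18 of the 23, against 54.5% of all genes tested.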

How the data were processed

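The authors deposited raw read counts per Entrez gene with a gene length, as 3 sample files and a series table with equal columns. Reads were assigned with featureCounts on mm9, per the submitters' processing notes, and the labels give the CASAVA version. No source used here gives the aligner, the annotation or the strand and multi-mapping settings. Of 26286 identifiers, 24176 matched a symbol in RefSeq (GRCm38.p6).

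From the deposited counts, 12147 genes passed filterByExpr (minimum count 10, minimum total 15) in edgeR 4.0.16 (R 4.3.3, limma 3.58.1). TMM factors were 1.00306 for replicate 3, 1.00004 for replicate 1 and 0.996916 for replicate 2. RPKM was computed from counts, deposited lengths and TMM library sizes, and differences use a pseudocount of 0.5. Benjamini-Hochberg adjustment ran over all genes tested, with a threshold of 0.05. DESeq2 1.42.0 was an alternative. Other alternatives were other scalings, filters, units and pseudocounts, a thinned replicate 3, a robust fit and each replicate left out.

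Named are the 10 genes, the 27 others of 5 related lists, marker, proliferation and sex-linked genes, and the 2 protein-coding genes nearest in level to Rad21, Ctcf and Wapl. The genes and lists were chosen with earlier results of these data known. Shared words and overlaps come from GENCODE M21 (GRCm38), and promoter coordinates are those of GRCm38.p6. Figures were drawn with matplotlib 3.10.9.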

Additional observations from a re-analysis of the deposited data

How the results depend on the processing

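Of 247 values recomputed under an alternative, 217 were labelled as unchanged. For differences and fold changes this meant the same direction, and for ranks the same rank. For levels it meant a move smaller than the replicate spread. For counts of genes it meant staying within a set fold of the main count, so single genes could still cross the threshold. Of 84 alternatives for the 12 differences between genes, 83 kept the direction, and Stag1 plus Stag2 minus Rad21 turned to 0.11 (log2) with CPM in place of RPKM, which removes the length correction. By CPM in place of RPKM, Nipbl ranked 1 of the 10, Rad21 2, Ctcf 3, Stag2 4 and Smc1a 5, and the other genes kept their rank. The median level was 7.57 with TPM, a change of unit. Genes at or above the level minimum were 6660 at 10 RPKM, against 11147 at 1 RPKM. In the comparison of replicate 3 with replicates 1 and 2, 9 genes were called, 23 with no scaling, 36 with DESeq2, and 0 with all genes with a count or with replicate 3 thinned, while 0 of the 10 genes were called under any of these 5 settings. Wapl's log2 fold change there was -0.01, and turned to 0.0096 without replicate 1 (-0.031 without replicate 2). More variable than genes of like abundance were 2 genes, 46 with all genes with a count, 0 with a robust fit, and 2 to 47 with a replicate left out. Beyond counting noise were 6623 genes (54.5% of those tested) and 7 of the 10. With a replicate left out they were 3141 to 5593 genes (25.7% to 43.3%) and 3 to 7 of the 10. The causes of these moves were not tested. Leaving out replicate 3 leaves no such comparison, and leaving out replicate 1 or 2 gives a fold without a test. No paired analysis was possible because the libraries form a single group.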
